A study of Mus musculus with 6 samples.

Results

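The genes described here build cholesterol and fatty acids. They are 32 of the 56884 genes in the deposited table, taken by gene symbol: 18 enzymes of sterol synthesis, 5 regulators of the SREBP transcription factors, 6 enzymes of fatty acid synthesis and 3 genes of sterol transport and storage. The genes were named by what they are known to do, but with earlier results of these data in view, so their direction is no independent evidence. All 32 symbols were found in the table. All 32 also entered the test, although 12 had a control mean under 20 normalized counts and 5 had both group means under 20. Normalized counts are the authors' unit, in which the value of a gene is its read number times a factor of the library.

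The libraries came from mouse neutrophils of the bone marrow that carried the surface proteins CD101 and Ly6G, which mark mature cells. Cells were kept in culture outside the animal, in 3 libraries with DKK1 and in 3 libraries without it, called control below. DKK1 (Dickkopf-1) is a secreted antagonist of Wnt signalling. The sources used here do not state the strain, age or sex of the mice, the dose of DKK1, the time in culture or what the control medium held. Nothing in the labels ties a library to its own mouse or dish, so each p-value measures the spread between libraries, which may be technical.

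Cells make cholesterol from acetyl-CoA. The mevalonate arm yields isoprenoid units, these are joined to squalene, squalene is closed to the first ring sterol, and later enzymes trim that sterol to cholesterol. When membrane sterol is low, the escort Scap carries the SREBP proteins from the endoplasmic reticulum to the Golgi, where they are cut and sent to the nucleus. Insig proteins hold Scap back when sterol is plentiful. SREBP-2 (Srebf2) acts mainly on sterol genes and SREBP-1 (Srebf1) mainly on fatty acid genes. In myeloid cells surplus cholesterol is stored as esters, made by Soat1.

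Before the genes themselves, the libraries have to be described, because those labelled DKK1 held little RNA of mature neutrophils. Marker counts in this paragraph stand beside 35.1% risen and 36.1% fallen over all 16265 genes tested, by the limma test given below. Of 11 neutrophil markers, 10 fell and 0 rose, and their summed level was 687221 to 713018 in control and 3382 to 3765 in DKK1. Cd101 went from a mean of 5098 to 3.53 and Ly6g from 1338 to 5.96. Of 12 monocyte and macrophage markers, 4 rose and 7 fell. Their summed level was 7393 to 7531 in control and 15296 to 15429 in DKK1. The median log2 change of these markers was -1.41, so the higher sum rests on a few abundant genes. Cd68, a lysosomal protein abundant in macrophages, rose 11.2-fold and Adgre1, which encodes F4/80, rose 2.56-fold. Csf1r, the receptor for the macrophage growth factor, had a mean of 2754 in control and 2073 with DKK1 and fell (log2 -0.41), though not with equal totals (0.12). C1qa was at 0 in all 3 DKK1 libraries and at 19.8, 23.5 and 20.7 in control. Summed levels of 5 B cell markers were 1449 to 1587 in control and 41.2 to 98.4 in DKK1, and those of 5 T and NK cell markers were 48.3 to 79.3 and 0 to 1.49. For 5 erythroid markers the ranges were 1015 to 1040 in control and 174 to 820 in DKK1. Of these 3 lists 4, 2 and 4 genes fell and 0 rose, and Cd3g, Nkg7 and Klrb1c were at 0 in all DKK1 libraries. Markers of eosinophils, basophils and mast cells (2 of 6 rose, 1 fell) summed to 321 to 325 and 81.0 to 253. Dendritic cell markers (2 of 4 rose, 0 fell) summed to 3.94 to 10.1 and 22.9 to 50.8, and those of marrow stroma and fat (2 of 5 rose, 1 fell) to 59.3 to 70.4 and 91.7 to 161. In a bulk library fewer cells of a type and less RNA per cell cannot be told apart, and the part that these shifts have in the results below was not tested.

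The smallest library by recovered reads was DKK1 library 2 (5188116) and the largest control library 3 (9851961). DKK1 library 2 stood apart from the other DKK1 libraries: the chi-square per degree of freedom on reads was 12.3 and 11.4 against them, 2.96 between those 2, and 2.15 to 2.21 between control libraries. The control libraries summed to 9729307 ± 39771 normalized counts and the DKK1 libraries to 6738824 ± 336773 (SD over 3 libraries). Setting every library to the same total moved the median change of all genes by 0.47 on the log2 scale, from -0.03 to 0.44, so both scalings are given where a call depends on them.

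Across the 32 genes, transcripts were mostly higher in the DKK1 libraries. By limma's moderated test with Benjamini-Hochberg adjustment over all 16265 genes tested, 20 rose, 3 fell and 9 were not past the adjusted threshold of 0.05. In all, 71.9% of the genes were called, against 71.2% of all genes tested, so being called says nothing particular about them. The direction was less even: 62.5% rose and 9.38% fell, against 35.1% and 36.1% of all genes tested. The 3 libraries of each group did not overlap for 23 genes, 20 with DKK1 higher and 3 with DKK1 lower, where the shares of all genes tested were 36.5% and 37.4%. No test was made of the list as a whole. The median log2 change was 1.14 over the list and -0.03 over all genes tested. Without DKK1 library 2 the counts were 21 risen and 4 fallen, beside 33.7% and 38.1% of the genes then tested (71.8% in either direction). With equal totals they were 22 and 2, beside 43.6% and 29.2% (72.8%). On recovered reads edgeR gave 20 and 3, beside 33.8% and 36.3% (70.1%), and DESeq2 19 and 3, beside 31.6% and 34.1% (65.7%).

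Among the enzymes of sterol synthesis 12 of 18 rose, 3 fell and 3 were not past the threshold, where 35.1% of all genes tested rose and 36.1% fell. The median log2 change was 1.89. The genes that rose ran through the whole pathway, from the synthesis of HMG-CoA to the lathosterol desaturase Sc5d. The 3 that fell were Pmvk in the mevalonate arm and Tm7sf2 and Ebp among the late sterol enzymes. In the same libraries the summed neutrophil markers were at 3382 to 3765 where control had 687221 to 713018, and their part in these counts was not tested. Both counts were the same without DKK1 library 2.

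The promoters of 4 of these enzymes are shown because they represent both directions of change: Hmgcs1 and Idi1 rose, and Pmvk and Tm7sf2 fell. Each run is the 250 bases before a RefSeq transcription start (GRCm38.p6), 5′ to 3′ on the strand of the gene. Capitals mark CCAAT boxes (CCAAT, or ATTGG where the box lies on the other strand) and the core of the sterol regulatory element, to which SREBP proteins are known to bind (TCACNCC on either strand). Only exact matches were searched, so a window without a core may still hold a site with slightly different letters. Hmgcs1 lies at chr13:119690101-119690350 on the plus strand, Idi1 at chr13:8885356-8885605 on the plus strand, Pmvk at chr3:89454291-89454540 on the plus strand and Tm7sf2 at chr19:6067851-6068100 on the minus strand.
Hmgcs1: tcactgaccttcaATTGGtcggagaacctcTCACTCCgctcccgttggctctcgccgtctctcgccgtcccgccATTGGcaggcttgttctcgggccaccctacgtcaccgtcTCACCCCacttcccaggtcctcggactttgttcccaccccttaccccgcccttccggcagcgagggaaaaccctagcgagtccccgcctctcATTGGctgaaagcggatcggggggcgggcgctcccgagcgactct
Idi1: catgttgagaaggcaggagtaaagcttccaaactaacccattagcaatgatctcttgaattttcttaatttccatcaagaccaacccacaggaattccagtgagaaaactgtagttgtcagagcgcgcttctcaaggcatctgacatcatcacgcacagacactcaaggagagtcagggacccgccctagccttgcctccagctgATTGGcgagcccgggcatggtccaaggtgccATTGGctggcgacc
Pmvk: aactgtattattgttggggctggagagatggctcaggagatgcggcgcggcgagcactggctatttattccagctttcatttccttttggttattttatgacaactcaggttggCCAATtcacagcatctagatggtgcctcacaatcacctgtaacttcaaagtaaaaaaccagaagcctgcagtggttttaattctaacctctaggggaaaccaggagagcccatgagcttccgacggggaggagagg
Tm7sf2: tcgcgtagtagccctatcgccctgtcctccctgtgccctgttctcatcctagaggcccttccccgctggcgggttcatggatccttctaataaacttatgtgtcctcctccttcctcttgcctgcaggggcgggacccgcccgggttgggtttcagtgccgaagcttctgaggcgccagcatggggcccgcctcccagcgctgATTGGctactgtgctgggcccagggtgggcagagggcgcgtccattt
In Hmgcs1 the cores began 220 and 137 bases before the start, and the window held 3 CCAAT boxes. Idi1 held 2 CCAAT boxes and no core in these bases. Pmvk and Tm7sf2 held 1 CCAAT box each and no core. Pmvk has a second window in the table, not shown, with 0 CCAAT boxes and no core. Hmgcs1 was 1 of 4 genes with the core among the 16 risen genes that have a window. Of all genes with a window, 15.1% held it. Acat2, which was not past the threshold, held the core too.

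Promoter windows were in the RefSeq table for 25 of the 32 genes, 33 windows in all since some genes have several starts. The full element TCACNCCAC, searched on both strands, was in 1 of the members' windows (Hmgcs1), or 3.03%. It was in 1.05% of all 32851 windows and in 1.05% of the windows of tested genes. Its shorter core TCACNCC, which the full element contains, was in 18.2% of the members' windows. The shares were 13.4% of all windows and 14.3% of the windows of tested genes. CCAAT was in 63.6% of the members' windows and 33.8% of all, or 34.9% of the windows of tested genes. The GC box GGGCGG was in 69.7%, against 32.7% of all and 53.8% of the windows of tested genes. The E-box CACGTG, a palindrome, was in 15.2%, against 6.02% of all and 8.16% of the windows of tested genes. The members' windows were also richer in G and C, with a median of 62.4% against 52.4% over all windows. No such median was taken over the windows of tested genes, whose GC box share was above that of all windows. These shares describe the letters in the windows and were not tested.

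In the mevalonate arm, Hmgcs1 makes HMG-CoA from acetyl-CoA units. It stood at 99.9, 92.7 and 131 normalized counts in the control libraries and at 578, 577 and 547 in the DKK1 libraries. The 3 DKK1 values lay close together and far above control, and Hmgcs1 rose 5.26-fold (log2 change 2.40 ± 0.14 SE, limma adjusted p = 3.08e-07). Mvd, which decarboxylates mevalonate diphosphate to the first isoprenoid unit, was at 83.5, 83.8 and 73.9 in control and 472, 559 and 459.7 with DKK1. Its groups did not overlap and it rose 6.18-fold (log2 2.61 ± 0.12, adjusted p = 7.78e-08). Idi1 interconverts the isoprenoid units, and its values of 35.1, 29.0 and 27.6 in control became 413, 282 and 355. That was a rise of 11.4-fold (log2 3.46 ± 0.18, adjusted p = 1.81e-07), and DKK1 library 2 was the lowest of its group.

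Pmvk, the kinase that acts between mevalonate kinase and Mvd, fell where Mvd, the next enzyme, rose. Control libraries held 80.2, 84.9 and 85.7 and DKK1 libraries 4.47, 8.24 and 8.17. The highest DKK1 value lay far below the lowest control value, and Pmvk fell 12.0-fold (log2 -3.45 ± 0.30, adjusted p = 6.33e-06). It fell with equal totals too (log2 -2.96, adjusted p = 1.82e-05). Mvk, the mevalonate kinase, rested on 7 control and 26 DKK1 reads and its values overlapped between groups (log2 1.07, 95% interval -0.35 to 2.50, adjusted p = 0.154). Acat2, the thiolase that supplies acetoacetyl-CoA, stood at 37.3, 54.7 and 69.0 in control and 86.5, 35.7 and 46.5 with DKK1, again overlapping (log2 0.01, 95% interval -0.79 to 0.81). Its paralog and neighbour Acat3, named here after its values were seen, was at 5.49, 5.59 and 4.93 in control and at 72.3, 56.3 and 64.5 with DKK1 (log2 3.36 ± 0.29, adjusted p = 5e-06). The sources used here do not say how reads were divided between these paralogs, so both values are uncertain.

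The enzymes that lead to squalene and close the ring rose from low control levels. Fdps joins isoprenoid units to farnesyl diphosphate. Its control values were 13.2, 0 and 4.93, on 17 reads in all, and its DKK1 values 142, 143 and 136. Of its 4208 exon bases, 1124 are shared with Gm43738 on the same strand, a gene with no row in the table, so its value is uncertain. It rose 23.2-fold (log2 5.01 ± 0.80, adjusted p = 0.000396). The size rests on the control libraries: the log2 change was 5.86 without control library 1 and 3.94 without control library 2. Sqle oxidises squalene and is a rate-limiting step of the pathway. It went from 11.0, 11.2 and 2.96, on 23 control reads in all, to 191, 133 and 223. That was a rise of 21.8-fold (log2 4.43 ± 0.44, adjusted p = 1.61e-05) with no overlap. Lss closes the ring to lanosterol. It was at 7.69, 3.35 and 6.90 in control and 59.6, 30.2 and 42.5 with DKK1, where library 2 was the lowest and library 1 the highest, and it rose 7.38-fold (log2 2.70 ± 0.41, adjusted p = 0.000265).

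Fdft1, squalene synthase, stood at 39.5, 41.3 and 42.4 in control and 291, 259.6 and 301 with DKK1, but its value is uncertain. In the GENCODE M21 annotation its exons share 774 bases with Ctsb, the lysosomal protease cathepsin B, on the opposite strand. Ctsb itself went from a mean of 2179 to 46374. The sources used here do not say whether reads were counted by strand, so reads of the 2 genes cannot be told apart in the shared bases. As deposited, Fdft1 rose 6.91-fold (log2 2.76 ± 0.14, adjusted p = 1.18e-07). Exons of Hmgcs1, Idi1, Lss, Cyp51, Srebf1, Scap and Elovl6 also overlap a gene on the opposite strand. Of these partners only Akap9 (a mean of 449 in control and 412 with DKK1, at Cyp51) and Rai1 (139 and 60.2, at Srebf1) had a mean above 33. Gm48342, which shares 557 bases with Hmgcs1, went from a mean of 6.75 in control to 32.5 with DKK1. Its part in the value of Hmgcs1 was not tested.

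Of the enzymes that trim lanosterol to cholesterol, 5 rose, Tm7sf2 and Ebp fell and Dhcr7 was not past the threshold. Cyp51 removes the first methyl group. Its control values were 50.5, 53.6 and 35.5 and its DKK1 values 282, 214 and 272, which did not overlap, and it rose 5.50-fold (log2 2.45 ± 0.20, adjusted p = 3.41e-06). The demethylation then runs through Msmo1, Nsdhl and Hsd17b7. Msmo1 had the highest level of these per kilobase of exon. It rose from 289, 313 and 326 to 463, 442 and 538 (1.56-fold, log2 0.63 ± 0.10, adjusted p = 0.000425). Nsdhl was at 6.59, 20.1 and 8.87 in control and 34.3, 31.6 and 42.5 with DKK1, where control library 2 came closest to the DKK1 values (3.05-fold, adjusted p = 0.0056). Hsd17b7 rested on 7 control and 52 DKK1 reads and rose 5.89-fold (log2 2.11 ± 0.53, adjusted p = 0.00612).

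Sc5d, the lathosterol desaturase, had the smallest rise of the list. Its values of 421, 439 and 447 became 539, 521 and 555, narrow groups that did not overlap (1.24-fold, log2 0.30 ± 0.08, limma adjusted p = 0.00576). By DESeq2 on recovered reads it was not past the threshold (adjusted p = 0.0567), and over all its alternatives the adjusted p ran from 2.3e-05 to 0.0567. Ebp moves a double bond within the sterol ring. It went from 113, 121 and 123 to 76.0, 49.5 and 58.0 and fell 1.95-fold (log2 -0.97 ± 0.19, adjusted p = 0.00139). With equal totals its log2 change was -0.45 and the call was lost (adjusted p = 0.0833, the highest of a range from 0.000102 to 0.0833 over its alternatives).

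Tm7sf2 reduces a double bond left by Cyp51. It held 17.6, 21.2 and 25.6 normalized counts in control and 0.745, 0 and 1.63 with DKK1, or 61 against 3 reads over the libraries of each group. The ratio of control to DKK1 was 23.5, with a 95% counting interval from 7.68 to 117, and it fell in the test (log2 -3.74 ± 0.50, adjusted p = 0.000113). Part of its exons overlaps Vps51 on the same strand, whose mean was 229 in control and 134 with DKK1. Dhcr7, the last reductase of one branch, rested on 17 and 16 reads with overlapping groups (log2 -0.85, 95% interval -2.69 to 0.99), and its log2 change was 0.09 without DKK1 library 2.

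**Figure D1:**
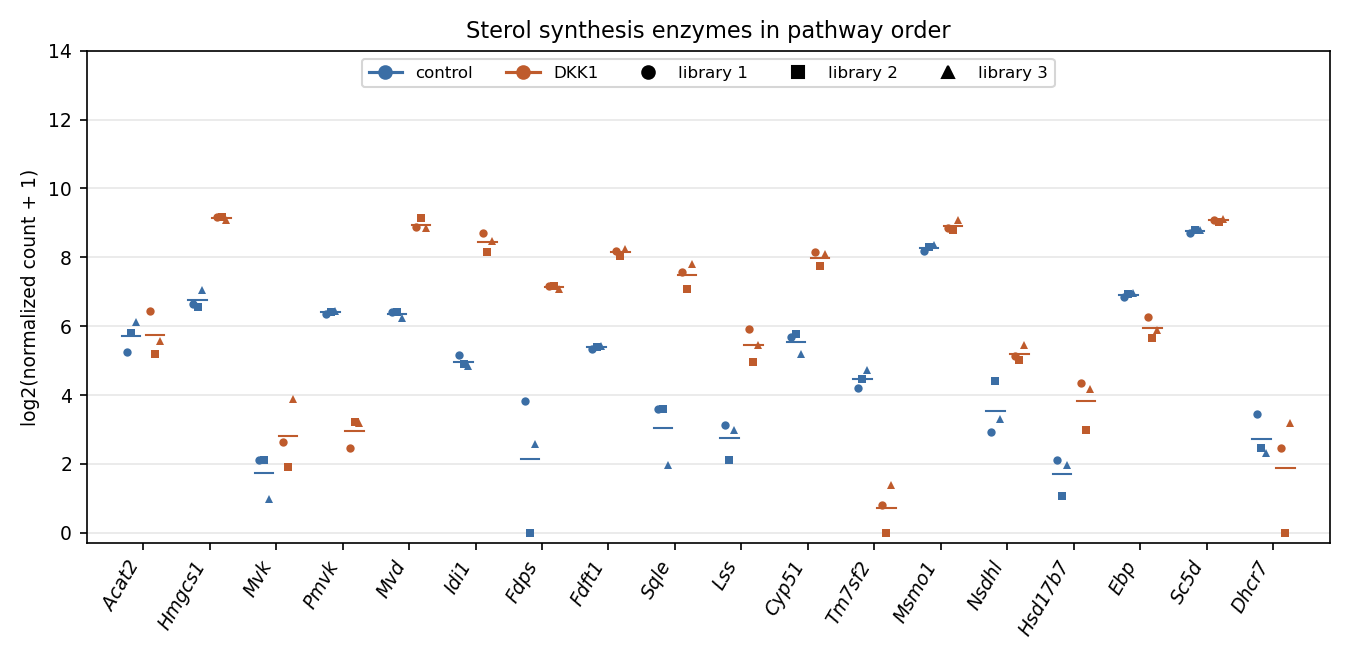
Values of the 18 sterol enzymes in each library, in pathway order from left to right, on a log2(normalized count + 1) scale. Each point is a library (circle 1, square 2, triangle 3), blue for control and orange for DKK1, and each bar is the mean of 3. The DKK1 points lie above control for 12 genes and below for Pmvk, Tm7sf2 and Ebp.

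Levels can be set side by side between genes only per length, here as mean normalized counts per kilobase of exon. In control the highest sterol enzymes on that scale were Sc5d (89.5), Ebp (51.5), Msmo1 (50.3) and Pmvk (48.8). With DKK1 the order was Mvd (267), Hmgcs1 (123), Sc5d (111) and Idi1 (99.8), while Pmvk stood at 4.06. The leading enzymes of the control libraries were thus largely others than those of the DKK1 libraries, with Sc5d in both. No test was made of the order.

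The regulators of SREBP were higher as well: 4 of 5 rose, 0 fell, and Srebf1 was not past the threshold. Of all genes tested 35.1% rose and 36.1% fell. The same counts held without DKK1 library 2 (33.7% and 38.1% of all genes) and with equal totals (43.6% and 29.2%). The promoter of Insig1, which had the largest change of the regulators, lies at chr5:28071162-28071411 on the plus strand. That of Srebf2, the factor of the sterol genes, lies at chr15:82147019-82147268 on the plus strand. Both are shown with the same capitals as above.
Insig1: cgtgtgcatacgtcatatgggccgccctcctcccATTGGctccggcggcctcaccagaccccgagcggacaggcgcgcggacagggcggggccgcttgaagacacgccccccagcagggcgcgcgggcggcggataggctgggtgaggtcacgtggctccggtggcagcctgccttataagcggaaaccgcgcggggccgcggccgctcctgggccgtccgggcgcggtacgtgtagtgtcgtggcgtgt
Srebf2: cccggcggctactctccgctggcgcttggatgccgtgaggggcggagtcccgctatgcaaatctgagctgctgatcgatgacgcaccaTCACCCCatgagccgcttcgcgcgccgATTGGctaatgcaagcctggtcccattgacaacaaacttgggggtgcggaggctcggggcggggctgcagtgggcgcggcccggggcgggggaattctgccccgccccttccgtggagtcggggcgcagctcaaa
Srebf2 held a core that began 162 bases before its start and 1 CCAAT box, and Insig1 held 1 CCAAT box and no exact match to the core.

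Insig1 holds the Scap complex in the endoplasmic reticulum and is itself a known target of SREBP. It was at 69.2, 45.8 and 58.1 in control and 792, 724 and 785 with DKK1. The DKK1 libraries were close to each other and more than 10 times every control value, a log2 change of 3.73 ± 0.15 (limma adjusted p = 3.13e-08). Its paralog Insig2 rose from 97.7, 62.6 and 73.9 to 256, 203 and 194 (2.79-fold, log2 1.48 ± 0.19, adjusted p = 9.57e-05). The ratio of Insig1 to Insig2 within a library was 0.711, 0.736 and 0.790 in control and 3.08, 3.55 and 4.03 with DKK1. The ratios did not overlap, but 3 libraries against 3 cannot give an exact permutation p under 0.1, which is the two-sided p here (0.133 adjusted over the 4 ratios computed).

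Srebf2 was at 344, 395 and 407 in control and 918, 685 and 839 with DKK1, where library 2 was the lowest. It rose 2.13-fold (log2 1.08 ± 0.12, adjusted p = 3.27e-05). Scap, the escort, went from 118, 126 and 113 to 217, 172 and 205, a rise without overlap (1.66-fold, log2 0.72 ± 0.13, adjusted p = 0.000991). Srebf1 stood apart from these: its values of 118, 156 and 126 in control and 101, 93.4 and 135 with DKK1 overlapped. Its log2 change was -0.29 (95% interval -0.71 to 0.13, adjusted p = 0.19) by the authors' scaling and 0.24 with equal totals, so its sign depends on the scaling. The ratio of Srebf2 to Srebf1 does not. It was 2.91, 2.52 and 3.21 in control and 9.04, 7.27 and 6.19 with DKK1 (exact two-sided permutation p = 0.1, 0.133 adjusted).

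Of the 3 genes that move and store sterol, 2 rose and Soat2 was not past the threshold. Of all genes tested 35.1% rose and 36.1% fell. Stard4 carries cholesterol between membranes. It was at 9.88, 16.8 and 24.6 in control and 127, 109.9 and 140.4 with DKK1 and rose 7.37-fold (log2 2.89 ± 0.32, adjusted p = 3.02e-05). Soat1 makes the cholesterol esters of lipid droplets in macrophages and had the highest level per kilobase of the 32 genes in both groups, 277 in control and 642 with DKK1. Its values were 2754, 2700.0 and 2687 in control and 5802, 7085 and 5970.3 with DKK1, a rise of 2.32-fold (log2 1.21 ± 0.08, adjusted p = 6.37e-07), with library 2 the highest. In the same libraries 4 of the 12 monocyte and macrophage markers rose and 7 fell, and their sum was 15296 to 15429 against 7393 to 7531 in control. The part of these markers in the rise of Soat1 was not tested.

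Soat2, the esterifying enzyme known from liver and intestine, differed widely among the DKK1 libraries. Control values were 124, 113 and 131, and DKK1 values 54.4, 297 and 49.0. Library 2 lay above all control libraries and the other DKK1 libraries below them. With all libraries the log2 change was -0.40 (95% interval -1.80 to 1.00, adjusted p = 0.581). Without DKK1 library 2 it was -1.23 with an adjusted p of 5.65e-05, in a range from 5.65e-05 to 0.985 over its alternatives. The group then counted 2 risen and 1 fallen.

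Of the 6 fatty acid enzymes, Fasn and Acaca rose and 0 fell, a share of risen genes near the 35.1% of all genes tested. With equal totals Acly and Scd2 also passed the threshold and 4 rose, where 43.6% of all genes did, and without DKK1 library 2 the count was 3 with Acly added. Scd1 and Elovl6 were near the limit of detection. At an unadjusted p under 0.05 by limma the count of fallen genes was also 0. The promoter of Fasn, which changed most, lies at chr11:120824548-120824797 on the minus strand.
Fasn: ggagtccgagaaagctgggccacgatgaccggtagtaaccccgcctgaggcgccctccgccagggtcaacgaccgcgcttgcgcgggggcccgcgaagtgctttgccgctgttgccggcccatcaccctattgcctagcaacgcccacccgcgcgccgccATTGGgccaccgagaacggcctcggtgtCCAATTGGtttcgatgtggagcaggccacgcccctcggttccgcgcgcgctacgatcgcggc
It held 3 CCAAT boxes, of which 2 overlap as CCAATTGG, and no exact match to the core in these bases.

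Fasn, the synthase that builds palmitate, was at 12.1, 12.3 and 15.8 in control and 122, 217 and 105 with DKK1. DKK1 library 2 was the highest of its group, and the rise was 11.1-fold (log2 3.31 ± 0.30, limma adjusted p = 7.81e-06). Acaca supplies malonyl-CoA to Fasn. Its values went from 24.2, 22.3 and 29.6 to 65.6, 59.1 and 92.3, 2.85-fold higher without overlap (log2 1.46 ± 0.25, adjusted p = 0.000599). Acly makes cytosolic acetyl-CoA from citrate and so feeds both pathways. It had the highest level per kilobase of the fatty acid enzymes, and its values of 1049, 1068 and 956 in control and 1159.7, 1001 and 1132 with DKK1 overlapped.

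The log2 change of Acly was 0.10 ± 0.08 (adjusted p = 0.302) by the authors' scaling, 0.63 with equal totals (adjusted p = 0.000325) and 0.16 without DKK1 library 2 (adjusted p = 0.0300). Its adjusted p ran from 0.000325 to 0.752 over the alternatives. Scd2, a desaturase that makes monounsaturated fatty acids, was at 11.0, 19.0 and 16.7 and 23.9, 15.1 and 32.7. Its log2 change of 0.55 (95% interval -0.31 to 1.42, adjusted p = 0.219) became 1.06 with equal totals (adjusted p = 0.037, in a range from 0.0370 to 0.541). Scd1, its paralog, rested on 6 control and 12 DKK1 reads, and 11 of the DKK1 reads were in library 1. Elovl6, which lengthens palmitate, rested on 7 and 3 reads. For neither could a difference be told at this depth, and the ratio of Scd2 to Scd1 overlapped between groups (exact permutation p = 0.5).

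**Figure D2:**
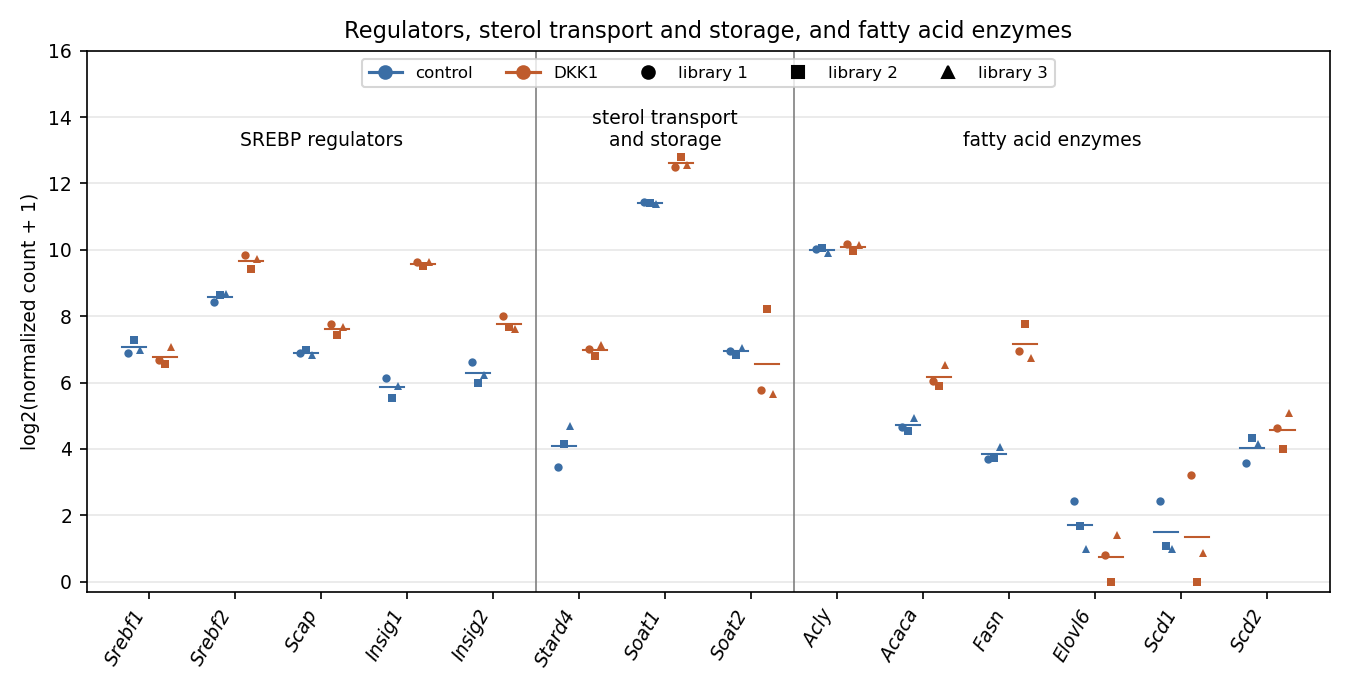
Values of the 5 SREBP regulators, the 3 genes of sterol transport and storage and the 6 fatty acid enzymes in each library, on a log2(normalized count + 1) scale, with points and bars as in the plot of sterol enzymes. Insig1 and Fasn show the widest gaps between blue control and orange DKK1 points, and the square of DKK1 library 2 stands alone for Soat2.

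Summing each group within a library gives its share of all normalized counts. A share carries no library factor, but it is the same as setting all libraries to 1 total, the scaling under which all genes shift upward. Per 1000000 normalized counts of a library, sterol enzymes held 141 ± 5.56 in control and 525 ± 54.6 with DKK1 (SD, n = 3 each), 3.72 times as much. SREBP regulators held 79.2 ± 2.53 and 314 ± 45.1, 3.97 times as much. Fatty acid enzymes held 111 ± 5.61 and 200.3 ± 16.5, 1.80 times as much. For sterol transport and storage, where Soat1 makes up most of the sum, the shares were 293 ± 2.00 and 969 ± 72.0. By the authors' scaling the ratios of DKK1 to control sums were lower: 2.57 times for sterol enzymes, 2.74 times for SREBP regulators, 2.29 times for transport and storage and 1.24 times for fatty acid enzymes. In all 4 groups every DKK1 library was above every control library (exact two-sided permutation p = 0.1 each, the smallest that 3 against 3 can give).

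Within each library the sum of the sterol enzymes can be set against that of the fatty acid enzymes. The ratio of these sums was 1.20, 1.22 and 1.39 in control and 2.65, 2.55 and 2.66 with DKK1. The groups did not overlap (exact two-sided permutation p = 0.1, 0.133 adjusted over 4 ratios). Acly alone made up most of the fatty acid sum, so the ratio depends heavily on that gene.

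**Figure D3:**
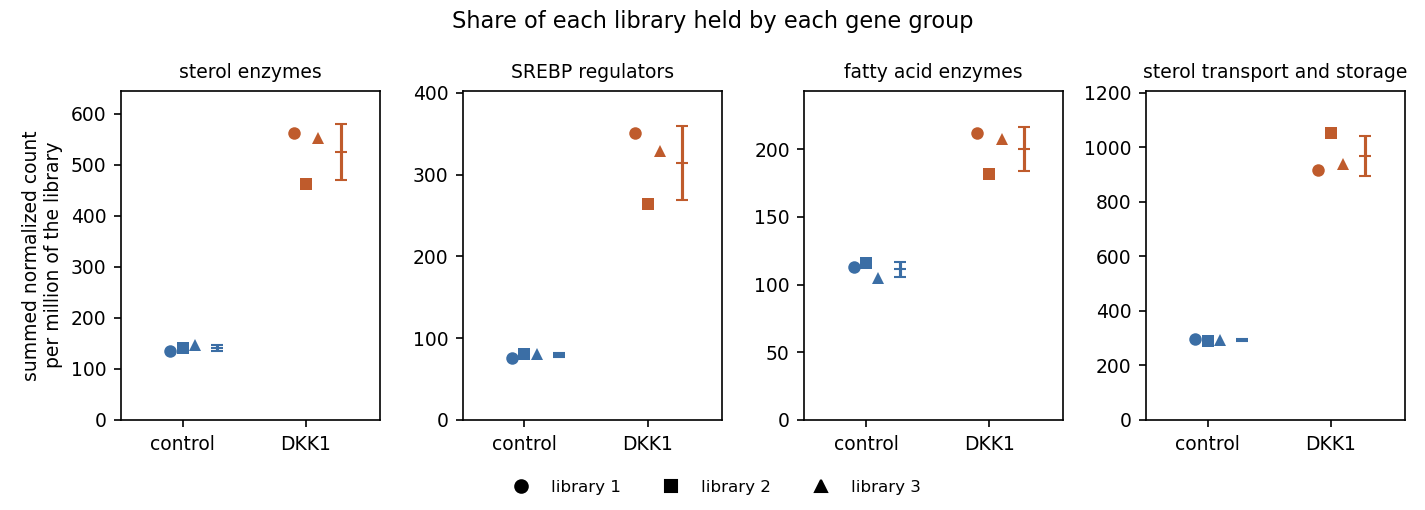
Summed normalized counts of each gene group per 1000000 of the library, for 3 control and 3 DKK1 libraries. Points are libraries, the short bars with whiskers are the mean and SD, and each vertical axis starts at 0. Every DKK1 library lies above every control library in all 4 panels, with the smallest step in the fatty acid enzymes.

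Equal totals shifted all 32 genes upward, as they did the median of all genes. Relative to the median of all genes, the median log2 change of the sterol enzymes was 1.92 by the authors' scaling and 1.91 with equal totals. For the SREBP regulators it was 1.11 and 1.17, for the fatty acid enzymes 0.36 and 0.40, and for transport and storage 1.24 and 1.29. Equal totals added Acly and Scd2 to the genes that rose and took Ebp from those that fell. No gene changed from risen to fallen or back under any alternative tried.

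**Figure D4:**
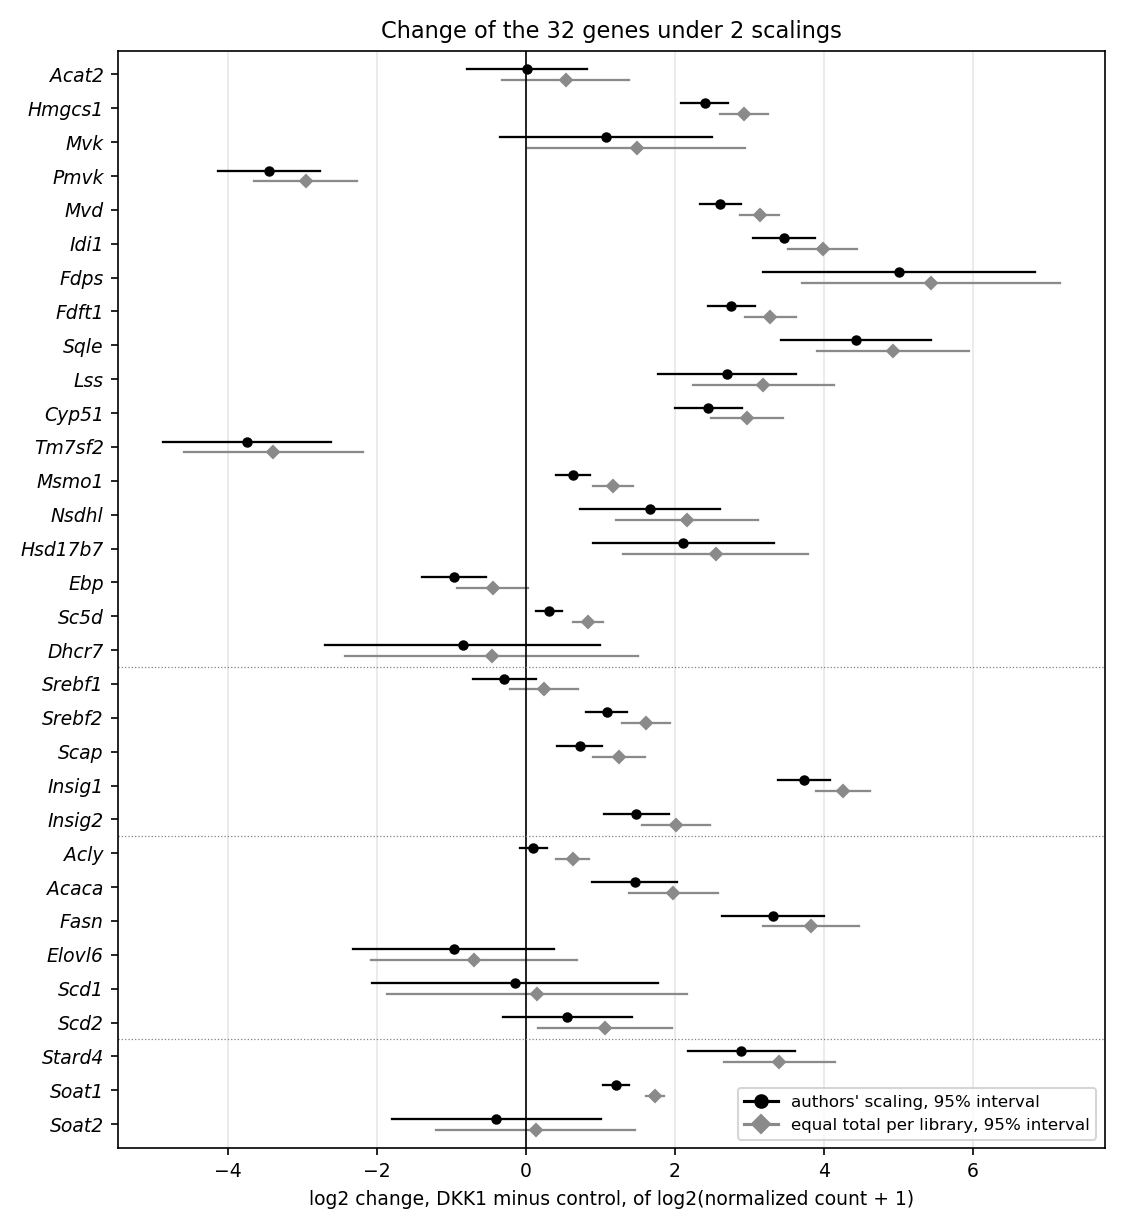
Log2 change (DKK1 minus control) of the 32 genes with its 95% interval, by the authors' scaling (black circles) and with equal totals per library (grey diamonds). Dotted lines part the 4 groups. The grey points lie to the right of the black ones, and only Pmvk and Tm7sf2 have both intervals wholly below 0.

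Within the DKK1 group, low values of the synthesis genes fell mostly in library 2. Of the 25 genes that averaged 20 or more in DKK1, 18 had their lowest DKK1 value in library 2 (72.0%), against 38.7% of the 9409 tested genes at that level. Among sterol enzymes it was 10 of 13 and among SREBP regulators 4 of 5. Library 2 was the highest for 5 of the 25, Mvd, Fasn, Soat1, Soat2 and Fdps, against 42.1% of the tested genes. It was the highest for 77.8% of the genes at that level in the lists of cholesterol efflux and of cholesterol uptake described next. This is the library with the fewest reads, and the part of depth in this pattern was not tested.

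The lipid genes around synthesis were read from 6 further lists made from pathway knowledge. All counts of these lists stand beside 35.1% risen and 36.1% fallen over all genes tested, and none was tested as a list. Of 9 proteins that cut SREBP or degrade sterol enzymes, 4 rose, 3 fell and 2 were not past the threshold. Erlin2, an adaptor of sterol-regulated degradation, went from 284 to 513 (1.81-fold, adjusted p = 6.05e-05). The ubiquitin ligase Marchf6 went from 1462, 1392 and 1368 to 508, 554 and 509 and fell 2.69-fold (adjusted p = 1.09e-07). The median of this list was 0.08 on the log2 scale, near that of all genes.

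The genes of cholesterol sensing and efflux changed in both directions. Of 11 listed, 9 entered the test, 5 rose and 4 fell, beside the same 35.1% and 36.1%. Nr1h3 encodes the sterol sensor LXR alpha. It was at 3.29, 3.35 and 0.985 in control and 552, 581 and 559 with DKK1, near absent in the one group and well expressed in the other (log2 7.40 ± 0.32, adjusted p = 4.67e-08). Nr1h2 encodes LXR beta and was added here after its values were seen. Its mean was 668 in control and 987 with DKK1 (log2 0.57 ± 0.08, limma adjusted p = 0.000215). Nceh1, a hydrolase of cholesterol esters, rose 9.58-fold. Abcg1, an exporter of cholesterol that LXR is known to induce, went from 1362, 1248 and 1287 to 80.5, 83.8 and 81.7 and fell 15.8-fold (adjusted p = 6.05e-10). Mylip, a ubiquitin ligase for lipoprotein receptors and likewise a known LXR target, fell 3.14-fold. Lpcat3 of the same list, added here after its values were seen, fell 3.83-fold (limma adjusted p = 1.36e-05). The exporter Abca1, also a known LXR target and added here after its values were seen, was called higher, from 168, 209 and 151 to 221, 363 and 207 (log2 0.55 ± 0.22, adjusted p = 0.0472). Its groups overlapped, and 4 rather than 5 genes of the list rose with a pseudocount of 0.1, median-of-ratios scaling or no trend, and without control library 1, control library 3 or DKK1 library 2.

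Of 10 genes of cholesterol uptake and trafficking, 6 rose and 3 fell, beside 35.1% and 36.1% of all genes tested. With equal totals, where 43.6% of all genes rose and 29.2% fell, only Gramd1a was still past the threshold among those that fell. Lipa, the lysosomal lipase that frees cholesterol from lipoproteins, went from 1077, 953 and 983 to 13052, 9737 and 13275 (12.0-fold, adjusted p = 6.5e-09). Gramd1c and Gramd1a encode related carriers from the plasma membrane to the endoplasmic reticulum and moved in opposite directions. Gramd1c rose from 6.28 to 304 and Gramd1a fell from 3850.0 to 237. Stard3, a lysosomal sterol carrier, had a log2 change of -0.41 (adjusted p = 0.00693) that was 0.12 with equal totals.

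Of 21 genes that activate, desaturate and esterify fatty acids, 19 entered the test, 8 rose and 7 fell, close to the shares over all genes. Acsl5, which activates long fatty acids, rose 3.68-fold and the mitochondrial citrate carrier Slc25a1, upstream of Acly, rose 3.89-fold from 36.2, 45.8 and 37.4 to 136, 169 and 160.0. Dgat1, which makes triglyceride, fell 4.97-fold from 2208, 2252 and 2078 to 411, 532 and 372. Elovl7, an elongase, was at 142, 114 and 108 in control and 0.745, 1.37 and 0 with DKK1, 341 against 2 reads, and fell by 6.24 on the log2 scale (adjusted p = 7.98e-07).

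**Figure D5:**
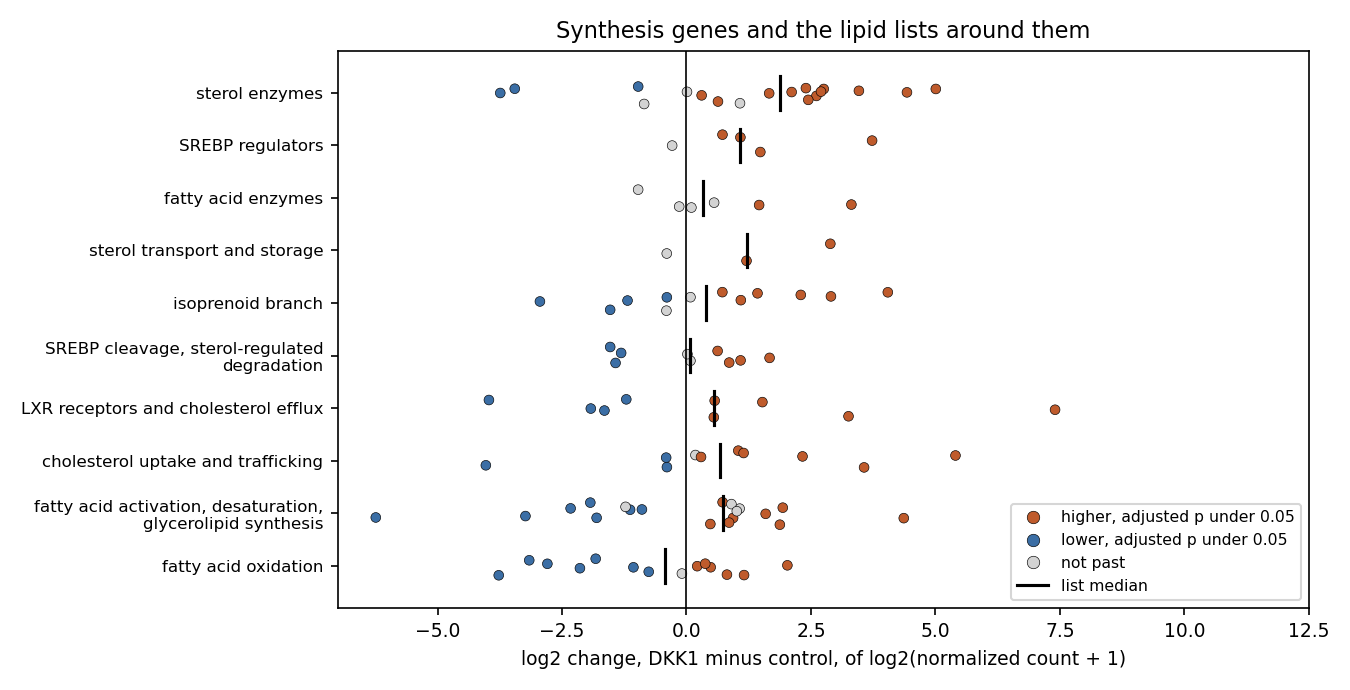
Log2 change of each tested gene of the 4 synthesis groups and of the 6 surrounding lipid lists. Orange points were higher and blue points lower at an adjusted p under 0.05, grey points were not past it, and black bars are list medians. Sterol enzymes lie mostly to the right of 0, and the surrounding lists have genes on both sides.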

How the data were processed

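RNA sequencing was done on 6 libraries, 3 per group, grouped by sample title. Per the file headers, the authors deposited a normalized count for each gene and library, which is a signal and not a raw count. Reads were placed on mm10, per the submitters' processing notes. Aligner, counter, annotation, strand setting and normalization method: not given in the sources used here. There are 3 other columns of per-sample values, which could be tied to no sample and were not used. The values were whole multiples of 1 read's worth (100% within 0.001 reads), so the authors' read counts could be recovered. They ranged from 5188116 to 9851961 per library.

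The test was limma 3.58.1 (trend, robust) in R 4.3.3 on log2(normalized count + 1), for the 16265 genes that reached 1 in 3 or more of the 6 libraries. It used two-sided p-values, Benjamini-Hochberg adjustment and a threshold of 0.05. The fit called 5709 genes higher and 5873 lower. On recovered counts edgeR 4.0.16 called 5503 and 5897, and DESeq2 1.42.0 called 5138 and 5541. Changes on the log2(value + 1) scale understate those of low genes, and folds are ratios of group means. Counting intervals are exact, at 95%, and cover counting error alone. The script was tested on simulated data first.

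Exon positions, lengths and overlaps came from GENCODE M21 (all 32 genes matched by identifier without its version), promoters from RefSeq. Members and lists were chosen with earlier results of these data known. All 32 members are named, of each other lipid list up to 2 genes per direction with the smallest adjusted p, and of the markers the defining ones. Some genes that this rule names are not reported here. Alternatives were pseudocounts of 0.1 and 10, testing without a filter or with one of 10, the replicate block, median-of-ratios and equal-total scaling, limma without trend or robust fitting, edgeR, DESeq2, and leaving out each library.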

Additional observations from a re-analysis of the deposited data

How the results depend on the processing

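No call of the 32 genes reversed under any alternative. The sign of the log2 change turned for 5 genes that were not past the threshold, with ranges over the alternatives of -0.45 to 0.24 for Srebf1, -1.23 to 0.13 for Soat2, -1.87 to 0.09 for Dhcr7, -0.35 to 0.53 for Acat2 and -0.99 to 0.57 for Scd1. When each library was left out, 184 results for single genes were called as with all libraries and 2 were not. Under the other alternatives the numbers were 311 and 4. The exceptions are Ebp, Acly and Scd2 with equal totals, Sc5d by DESeq2, and Acly and Soat2 without DKK1 library 2, whose values stand in the report. With equal totals the fatty acid enzymes that rose numbered 4 rather than 2, and the genes of cholesterol uptake and trafficking that fell numbered 1 rather than 3. Genes of sterol transport and storage that fell numbered 0 to 1 when each library was left out, with 1 without DKK1 library 2. Equal totals gave 7098 genes higher and 4742 lower over the whole table, 59.9% of calls higher against 49.3%. The shifts under equal totals follow from the change of totals.

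Same-numbered control and DKK1 libraries had deviations from their group means that correlated at -0.01, 0.01 and 0.02. These values show no shared deviation by number. They cannot tell whether same-numbered libraries shared an animal or a batch, which the labels do not say. With the replicate number as a block, 5630 genes were higher and 5817 lower, and the counts of the 32 genes were 20 and 3 as without it, while the risen genes of fatty acid oxidation numbered 4 rather than 6. Control means were under 20 for 12 genes: Mvk, Fdps, Sqle, Lss, Nsdhl, Hsd17b7, Dhcr7, Fasn, Elovl6, Scd1, Scd2 and Stard4. With 3 libraries a group, depth limits the size of their folds. The same holds for Tm7sf2, which had 3 reads over the DKK1 libraries.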

Other observations

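Past the mevalonate arm, isoprenoid units also go to dolichol, ubiquinone and the lipid anchors of proteins. Of 12 genes of that branch, 6 rose and 4 fell, with a median log2 change of 0.40, where 35.1% and 36.1% of all genes tested did so. The subunits of the enzyme that attaches geranylgeranyl groups to Rab proteins moved apart. Rabggtb was at 32.9, 30.2 and 34.5 in control and 166, 144 and 182 with DKK1 and rose 5.05-fold (limma adjusted p = 2.02e-06). Rabggta was at 268, 239 and 253 and 92.4, 72.8 and 97.2 and fell 2.90-fold (adjusted p = 1.06e-05). Both directions held with equal totals. Rce1, the protease that trims prenylated proteins, went from 8.79, 10.1 and 6.90 to 70.1, 68.7 and 71.0, an 8.15-fold rise. Dhdds, which makes the chain of dolichol, fell 2.28-fold from 617, 593 and 688 to 285, 275 and 272.

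Fatty acid oxidation, the opposite of synthesis, had 6 genes that rose and 7 that fell of 14, beside 35.1% and 36.1% of all genes tested. Only 4 or 5 rose under most alternatives, 4 of them by edgeR, by DESeq2 and with the replicate block, and 4 to 5 when each library was left out. With equal totals 7 rose and 6 fell. Cpt1a, which makes the carnitine esters and is the rate-limiting step, was at 1802, 1729 and 1800.0 in control and 148, 113 and 129 with DKK1, 13.7-fold lower (limma adjusted p = 2.76e-09). Slc25a20, the carrier of those esters, went from 508, 595 and 505 to 157, 147 and 148, 3.57-fold lower (adjusted p = 2.71e-07). The dehydrogenase Acadl rose 2.23-fold, from 121, 149.7 and 149 to 293, 324 and 318. The list's median log2 change was -0.43.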
